A study of Mus musculus with 18 samples.

Results

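The comparison described here set recombinant interleukin-4 (rIL-4) against recombinant interleukin-13 (rIL-13) in microglia from the injured mouse spinal cord. Its members were the genes outside the mitochondrial genome that had at least 10 counts in each of the 6 rIL-4 and rIL-13 microglia libraries. They were 11180 of 53465 annotated genes, of which 10615 were protein coding and 237 were processed pseudogenes, and all of them were among the 15566 genes tested in microglia. The rule used the level of a gene and not its difference between the cytokines. Adult female C57BL/6J mice had a contusion of the thoracic spinal cord and were injected into the cord 48 h later with PBS (mice 1, 2 and 3), rIL-13 (mice 5, 6 and 7) or rIL-4 (mice 8, 9 and 10). Microglia were sorted 24 h after the injection as CD45-low, CD11b+ and F4/80+ cells, and macrophages as CD45-high cells of the same cords. Each library held the sorted cells of 1 mouse, so that n = 3 in each group, and every mouse carried the injury and the injection, the PBS mice included. Members such as Ccl24, Ear2, Rnase2a, Clec7a and Ccl6 had higher counts in each rIL-4 library than in each rIL-13 library, and Perp, Tmem176b and Gm5127 had lower counts, but 0 members passed edgeR's test.

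IL-4 and IL-13 are related type 2 cytokines that share the receptor chain IL-4Ra. IL-4 binds it together with the common gamma chain Il2rg or with IL-13Ra1, whereas IL-13 uses the pair of IL-4Ra and IL-13Ra1. Both receptors activate the JAK kinases and the transcription factor STAT6, and the pair with Il2rg also engages the adaptor IRS-2. In macrophages and microglia this signalling is known for alternative activation, with induction of the mannose receptor, chitinase-like proteins and several chemokines. Microglia are the resident macrophages of the central nervous system and are recognised by P2ry12, Tmem119 and Cx3cr1.

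Library totals ran from 37963978 to 44431581 counts for rIL-4 and from 38993087 to 41960631 for rIL-13. Between 15193 and 15626 genes had a count in the rIL-4 libraries and between 16132 and 16832 in the rIL-13 libraries (exact permutation test, two-sided, p = 0.1, the lowest value that 3 against 3 mice can give). The mitochondrially encoded protein genes, which are outside the rule, took 8.86% ± 3.00 of the counts (SD, n = 3) in microglia of the rIL-4 mice, against 3.40% ± 0.126 in those of the rIL-13 mice (p = 0.1 in the same exact test), and the members took between 82.5% and 91.4% with rIL-4 and between 93.4% and 94.1% with rIL-13. Of 12 microglia markers, all 12 were members. Their summed level was 11807, 4880 and 9709 CPM (counts scaled to a common library total) with rIL-13 and 6503, 4753 and 4461 with rIL-4 (exact p = 0.2), against 10144 to 17673 with PBS and at most 6110 in the macrophage libraries. The microglia markers were present in all 6 libraries, and the rIL-13 library of mouse 6 lay within the range of the rIL-4 libraries.

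Markers of other cells were also found in the gate. Of 12 fibroblast and pericyte markers, 11 were members, and their sum was 2429, 11192 and 1989 CPM with rIL-13 and 1741, 1208 and 279 with rIL-4 (exact p = 0.1). The rIL-13 library of mouse 6 stood apart, the groups did not overlap, and the PBS libraries, at 2949 to 4501, lay between mouse 6 and the other 2 rIL-13 libraries. In macrophages the sum was at most 9.63. For 12 monocyte and macrophage markers, the sum was 17981 to 24875 with rIL-13 and 30761 to 52274 with rIL-4 (exact p = 0.1). That list holds genes that both cytokines are known to induce, such as Chil3. Endothelial markers summed to 2328 to 4612 with rIL-13 and 2487 to 3988 with rIL-4, and the sum of oligodendrocyte markers was 229.6 to 350.1 and 336 to 392. Of 10 T and NK cell markers, Cd3e, Cd3d, Cd3g, Cd8a and Nkg7 were at 0 counts in all 6 libraries, as were Ms4a1 and Pax5 among 6 B cell markers. In such bulk libraries, fewer cells of a type and less RNA per cell cannot be told apart.

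**Figure D1:**
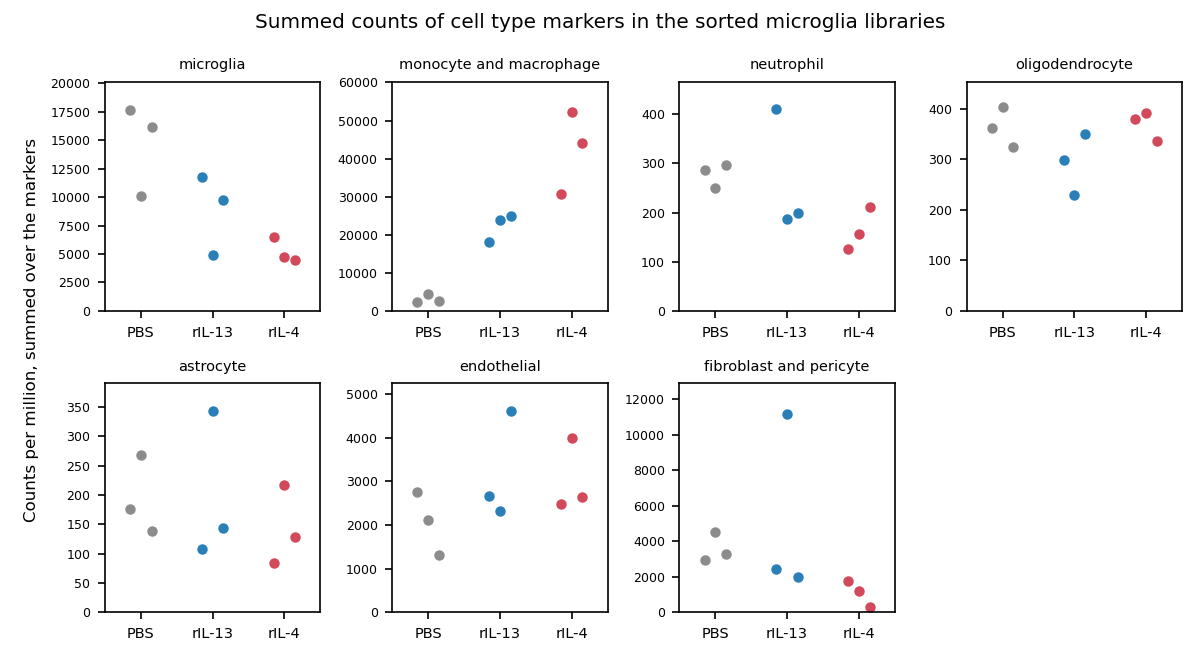
Summed CPM of the markers of a cell type in each of the 9 sorted microglia libraries, with 1 point per mouse and a separate linear axis from 0 in each panel. Fibroblast and pericyte markers were highest in the rIL-13 library of mouse 6 (11192), and the monocyte and macrophage sum was higher in each rIL-4 library than in each rIL-13 library.

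The first question was which members differed between the cytokines. By edgeR's quasi-likelihood test on the 9 microglia libraries, with p-values adjusted by the Benjamini-Hochberg method over all genes tested, 0 of 11180 members had an adjusted p under 0.05, against 6 genes (0.0385%) among the 15566 tested, all 6 lower with rIL-4 and none of them a member. The lowest adjusted p of a member was 0.0965, shared by Perp and Prps1. At an unadjusted p under 0.05, edgeR gave 490 members higher and 564 lower with rIL-4 (4.38% and 5.04%), where the shares among all genes tested were 4.18% and 7.21%. DESeq2's Wald test on the same libraries called 92 members higher and 160 lower (0.824% and 1.43% of the members it gave an adjusted p), where it called 1.08% and 2.85% of all such genes (3.93% in either direction). The fibroblast and pericyte marker sum was lower in each rIL-4 library, and the part of such cells in the 160 calls was not tested. The edgeR fit on the members alone called 0 members. In 783 members every rIL-4 library was above every rIL-13 library and in 676 every one was below, which is 7% and 6.05% of the members, against 5.74% and 6.67% of all genes tested. The members' shares were thus close to those of all genes tested for higher levels and below them for lower levels by both tests.

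Across the members, the median log2 fold change of rIL-4 over rIL-13 was 0.018, and its 25th to 75th percentile ran from -0.28 to 0.26. The median standard error of a member was 0.33 on the log2 scale. A log2 fold change beyond 1 in size was found in 807 members (7.22%), 275 of them higher and 532 lower with rIL-4, against 21.8% of all genes tested. Since no member passed edgeR's test, the named members are described by their levels and by both tests. A normalized count is a count divided by the library's size factor, and levels are not compared between genes. Values are given in the order of mice 5, 6 and 7 for rIL-13 and of mice 8, 9 and 10 for rIL-4.

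**Figure D2:**
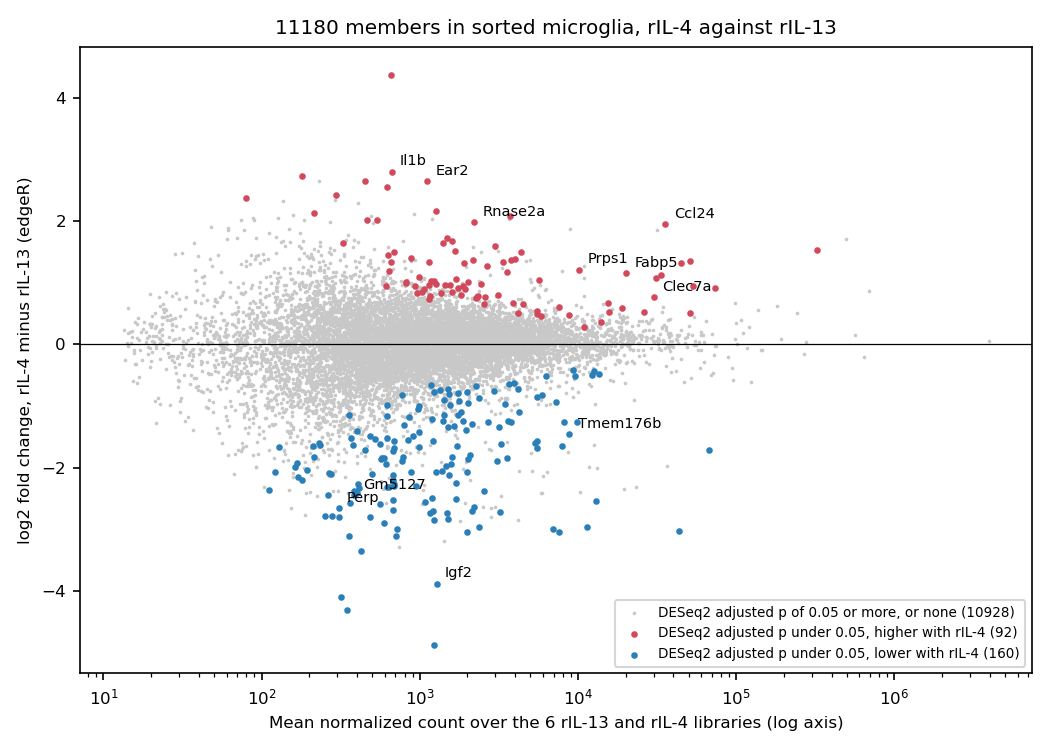
Each point is 1 of the 11180 members, with its mean normalized count over the 6 libraries (log axis) against its edgeR log2 fold change of rIL-4 over rIL-13. Colour marks the 92 members called higher and the 160 called lower by DESeq2, and edgeR's test called 0.

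Among members with a mean of at least 100 normalized counts and no overlap between the groups, the 10 with the lowest p in each direction led the comparison. Prps1 (ENSMUSG00000031432.3, chromosome X from 140456613 to 140476140), which encodes a phosphoribosyl pyrophosphate synthetase of nucleotide synthesis, had normalized counts of 7108, 5614 and 5625 (rIL-13) and 13319, 17474 and 11812 (rIL-4). Each rIL-4 library was above each rIL-13 library, and the PBS libraries were lower still, at 1555 to 1862 (log2 fold change 1.21, standard error 0.19, adjusted p = 0.0965 with edgeR and 1.21e-07 with DESeq2). Ccl24 (ENSMUSG00000004814.10, chromosome 5 from 135569937 to 135573049), the chemokine eotaxin-2, had 13456, 18748 and 11900 (rIL-13) and 32843, 81032 and 56140 (rIL-4), with 119 to 218 in PBS microglia. Its lowest rIL-4 value, from mouse 8, was still above every rIL-13 value (log2 fold change 1.95, standard error 0.34, adjusted p = 0.109 with edgeR and 3.08e-07 with DESeq2). Il1b, which encodes the inflammatory cytokine interleukin-1 beta, had 219, 178 and 103 (rIL-13) and 445, 1398 and 1642 (rIL-4), and the PBS libraries, at 535 to 865, lay above all of the rIL-13 libraries and above the lowest rIL-4 library (log2 fold change 2.80, standard error 0.51, adjusted p = 0.122 with edgeR and 9.31e-06 with DESeq2). Without rIL-4 mouse 8, Ccl24 and Il1b were the 2 members that edgeR called, both with an adjusted p of 0.0478, and their log2 fold changes were then 2.23 and 3.19.

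Clec7a (ENSMUSG00000079293.11, chromosome 6 from 129461591 to 129472779) encodes dectin-1, the receptor for beta-glucan, and had normalized counts of 22075, 21218 and 23448 (rIL-13) and 42930, 35377 and 35282 (rIL-4), a narrow spread within each group (log2 fold change 0.77, standard error 0.14, adjusted p = 0.116 with edgeR and 1.08e-06 with DESeq2). Fabp5, a fatty acid binding protein, had 14091, 11304 and 12081 (rIL-13) and 25039, 23081 and 35555 (rIL-4), and Pstpip1, a cytoskeletal adaptor, 779, 929.8 and 866 (rIL-13) and 1721, 2167 and 3497 (rIL-4). In both members the rIL-13 libraries lay near the PBS libraries, which were 8873 to 13808 for Fabp5 and 662 to 875 for Pstpip1, and the rIL-4 libraries were above both groups. Their log2 fold changes were 1.16 (standard error 0.23) and 1.52 (standard error 0.27), with edgeR adjusted p of 0.139 and 0.116. Hspa1a, an inducible heat shock protein, had 363, 285 and 366 (rIL-13) and 729, 1101 and 952 (rIL-4), and Ddx41, a DEAD-box helicase that senses DNA, 2139, 2233 and 2502 (rIL-13) and 3668, 4574 and 3726 (rIL-4). The log2 fold change was 1.45 for Hspa1a and 0.80 for Ddx41, with edgeR adjusted p of 0.139 and 0.133. Mbp, which encodes myelin basic protein and is on the list of oligodendrocyte markers, had 2136, 1853 and 2339 (rIL-13) and 5638, 4236 and 6516 (rIL-4) (log2 fold change 1.37, standard error 0.25, edgeR adjusted p = 0.116). Mobp, from the same marker list, was also higher, with 1113, 569.9 and 374 (rIL-13) and 2132, 2087 and 2617 (rIL-4) and a DESeq2 adjusted p of 0.00498, whereas Cldn11 of that list was lower with rIL-4. The part of oligodendrocyte RNA in these differences was not tested.

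The promoter windows of Clec7a and Lgals3 are shown because both members were higher with rIL-4 and their windows hold the motif that STAT6 prefers, which is TTC and GAA separated by any 4 bases. The motif equals its own reverse complement, so that both strands were read together. The sequences are from RefSeq (build GRCm38.p6) and cover 250 bases before the start of transcription, 5′ to 3′ on the gene's strand, with capitals at the motif. The Clec7a window is chr6:129472780-129473029 on the minus strand and the Lgals3 window chr14:47373610-47373859 on the plus strand.
Clec7a: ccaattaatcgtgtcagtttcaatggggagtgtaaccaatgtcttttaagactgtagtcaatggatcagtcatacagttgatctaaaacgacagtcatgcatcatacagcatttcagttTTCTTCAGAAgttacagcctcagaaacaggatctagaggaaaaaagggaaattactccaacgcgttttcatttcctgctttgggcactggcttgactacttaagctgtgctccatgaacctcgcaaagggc
Lgals3: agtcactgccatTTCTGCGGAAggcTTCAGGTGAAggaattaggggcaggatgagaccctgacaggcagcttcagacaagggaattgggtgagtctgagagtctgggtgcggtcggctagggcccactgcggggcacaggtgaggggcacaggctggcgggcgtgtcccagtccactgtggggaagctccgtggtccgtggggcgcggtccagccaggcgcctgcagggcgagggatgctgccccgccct
Of 11174 member symbols, 8503 matched the RefSeq table, and 5.69% of them held this motif in a window, against 6.76% of all 27025 genes of the table. It was found in 8 of 72 matched members that DESeq2 called higher with rIL-4 (11.11%) and in 5 of 107 called lower (4.67%). TTC and GAA separated by 3 bases, the shorter spacing, also its own reverse complement and free to overlap the first, was found in 8.13% of all genes, in 5 of the 72 (6.94%) and in 7 of the 107 (6.54%). A match is a description of the letters and not of binding.

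Perp (ENSMUSG00000019851.8, chromosome 10 from 18845020 to 18857073), a p53 target of desmosomes, was the member with the lowest p and had normalized counts of 327, 711 and 556 (rIL-13) and 87.5, 100.2 and 62.5 (rIL-4). All 3 rIL-4 libraries were below all rIL-13 libraries, and PBS microglia, at 492 to 611, were within the rIL-13 range (log2 fold change -2.66, standard error 0.40, adjusted p = 0.0965 with edgeR and 9.89e-08 with DESeq2). Tmem176b, a transmembrane protein of myeloid cells, had 10276, 17164 and 11295 (rIL-13) and 5406, 4802 and 3828 (rIL-4) (log2 fold change -1.46, standard error 0.23, adjusted p = 0.0976 with edgeR and 4.05e-07 with DESeq2). Gm5127, a predicted gene, had 828, 574 and 549.9 (rIL-13) and 152, 108 and 100.2 (rIL-4), whereas the PBS libraries, at 150.2 to 159.7, were near the rIL-4 libraries (log2 fold change -2.44, standard error 0.41, adjusted p = 0.106 with edgeR and 5.93e-08 with DESeq2). In this gene the rIL-13 libraries were the ones that stood above the other groups. Id3, an inhibitor of DNA binding by helix-loop-helix factors, had 3920.5, 9380.4 and 3447 (rIL-13) and 1480.2, 1681 and 1489 (rIL-4), with its highest value in mouse 6 (log2 fold change -1.83, standard error 0.34, edgeR adjusted p = 0.126). Cldn11, a claudin of myelin, had 569, 926 and 939 (rIL-13) and 155, 149.9 and 263 (rIL-4) (log2 fold change -2.10, standard error 0.34, edgeR adjusted p = 0.0976). Mylk, the myosin light chain kinase, had 943, 1184 and 637 (rIL-13) and 330.4, 383 and 249.9 (rIL-4), and Gpr182, an atypical chemokine receptor of endothelium, 739, 1302 and 1302 (rIL-13) and 282, 186 and 257 (rIL-4). Their log2 fold changes were -1.51 and -2.20, with edgeR adjusted p of 0.124 and 0.126. Akap12, a scaffold for protein kinases, Mboat7, an acyltransferase of phosphatidylinositol, and Uaca completed the list, with log2 fold changes of -1.24, -1.14 and -0.79. In these 3 members the rIL-13 libraries were close to the PBS libraries, and edgeR's adjusted p was 0.126, 0.133 and 0.139.

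**Figure D3:**
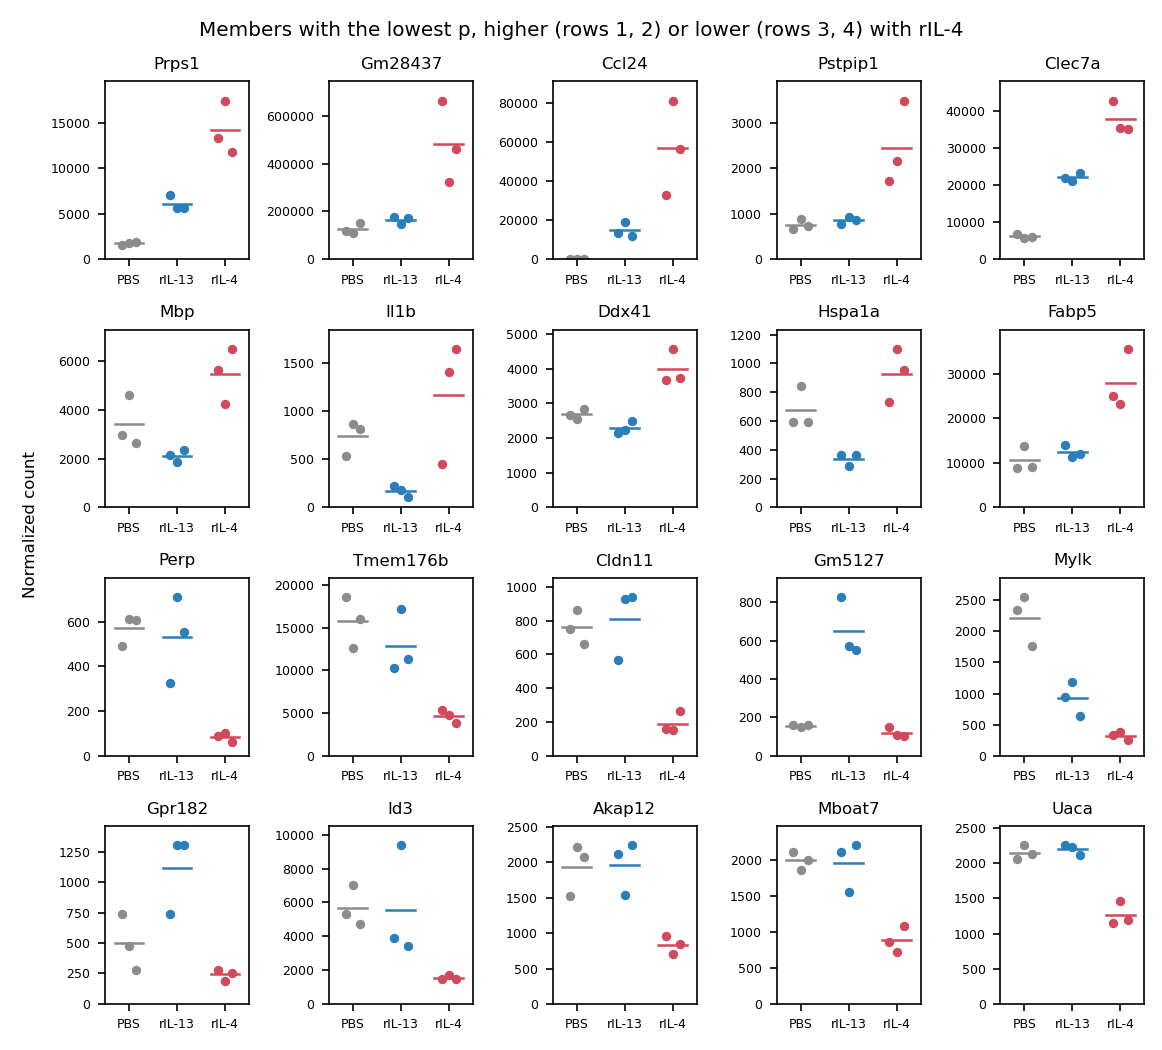
Normalized counts (linear axis from 0 in each panel) of the 20 leading members in the 9 microglia libraries, with 1 point per mouse and a line at the mean of each group. The upper 10 members were higher with rIL-4 and the lower 10 were lower, with no overlap between the rIL-13 and rIL-4 libraries because the members were chosen so.

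Gm28437, among the 10 leading members higher with rIL-4, is a pseudogene outside the mitochondrial genome whose sequence is a copy of a mitochondrial gene. Of 315 member pseudogenes, 7 matched a mitochondrially encoded transcript with at least 90% identity over their longest alignment. Gm28437 matched mt-Co3, Gm10925 mt-Atp6, Gm28661 mt-Co2 and Gm10222 mt-Nd4l with 100% identity, Gm29216 matched mt-Co1 with 99.79%, Gm28438 mt-Nd3 with 99.71% and Gm13340 mt-Co1 with 97.61%. The first 6 lie side by side on chromosome 1 between 24612407 and 24616197, and Gm13340 is on chromosome 2 (GRCm38). RSEM shares a read out among all genes it matches, so that the counts of these copies cannot be told apart from those of the mitochondrial genes. Gm28437 had normalized counts of 177430, 149370 and 170580 (rIL-13) and 665050, 321780 and 460870 (rIL-4) (log2 fold change 1.54, standard error 0.25, adjusted p = 0.0976 with edgeR and 5.93e-08 with DESeq2). All 7 copies had a log2 fold change above 0, from 0.89 to 1.86 with a median of 1.36, and 5 of the 7 did not overlap between the groups. Without rIL-4 mouse 9, Gm28437 was the only member that edgeR called (log2 fold change 1.77, adjusted p = 0.0412). These copies share their sequence with genes whose share of the counts was also higher with rIL-4, and their values are uncertain.

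Of 26 genes of the IL-4 and IL-13 receptors and their transducers, 24 were members, and their median log2 fold change was 0.026, with 13 higher and 11 lower. Il4ra, the shared receptor chain, had normalized counts of 6492, 17025 and 8159 (rIL-13) and 5244, 19053 and 10543 (rIL-4), and its groups overlapped widely (log2 fold change 0.15, standard error 0.47, edgeR adjusted p = 0.978). Its 95% interval ran from -0.90 to 1.21, and a difference within it could not be told from none. Il2rg, the common gamma chain used by IL-4, had 2932, 2096 and 4031 (rIL-13) and 3483, 3644 and 3969 (rIL-4), and Stat6, the shared transcription factor, 6175, 6279 and 7551 (rIL-13) and 7108, 6208 and 8939 (rIL-4). The log2 fold change was 0.29 (95% interval -0.24 to 0.81) for Il2rg and 0.15 (-0.24 to 0.54) for Stat6, and Il2rg had 0.071 without rIL-13 mouse 6 and 0.56 without rIL-13 mouse 7. Il13ra1, the chain that IL-13 binds, had 3760.5, 6541 and 3537 (rIL-13) and 3444, 1424 and 2645 (rIL-4), with no overlap (log2 fold change -0.87, standard error 0.32, edgeR adjusted p = 0.388; -0.56 without rIL-13 mouse 6). Its PBS libraries, at 4963 to 6026, lay within the rIL-13 range. Socs3, a feedback inhibitor of cytokine signalling, had 2918, 4295 and 3262 (rIL-13) and 2577, 2812 and 2819.5 (rIL-4) (log2 fold change -0.35, standard error 0.16, edgeR adjusted p = 0.467), and its log2 fold change was -0.19 without rIL-13 mouse 6. Irs2, the adaptor of IL-4 signalling, had low and overlapping counts of 59, 29.6 and 213 (rIL-13) and 306, 187 and 144 (rIL-4) (log2 fold change 1.06, standard error 0.82, edgeR adjusted p = 0.745), 2.26 without rIL-13 mouse 7 and 0.63 without rIL-13 mouse 6. Socs1, another feedback inhibitor of the JAK kinases, had 371, 427 and 369 (rIL-13) and 778, 1138 and 746 (rIL-4), against 43.8 to 79.3 with PBS (log2 fold change 1.19, standard error 0.34, adjusted p = 0.31 with edgeR and 0.036 with DESeq2). It was 1 of 2 genes of the list with an unadjusted p under 0.05 in edgeR, higher with rIL-4, and Il13ra1 was the other, lower with rIL-4.

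The list of 51 alternative activation genes, which was written with earlier results of these data known, had 44 members. Of these, 36 had a log2 fold change above 0, and the median was 0.92, against 0.018 over all members. At an unadjusted p under 0.05, edgeR gave 17 higher and 2 lower, against 4.38% and 5.04% of all members, and 14 to 22 higher with 1 library left out. DESeq2 called 11 higher and 1 lower, against 0.824% and 1.43% of the members (1.08% and 2.85% of all genes). In 18 of them every rIL-4 library was above every rIL-13 library, against 7% of all members. Ear2 (ENSMUSG00000072596.4, chromosome 14 from 44102654 to 44103534) and Rnase2a encode ribonucleases of the eosinophil-associated family, whose near-identical copies could share reads. Ear2 had normalized counts of 390.1, 216 and 306 (rIL-13) and 1976, 1738 and 2025 (rIL-4), with 1.04 to 24.2 in PBS microglia. The lowest rIL-4 library of Ear2 was well above the highest rIL-13 library (log2 fold change 2.65, standard error 0.61, adjusted p = 0.204 with edgeR and 0.000239 with DESeq2). Rnase2a had 1288, 662 and 697 (rIL-13) and 3429.7, 3438 and 3650.5 (rIL-4), with 10.4 to 40.1 in PBS microglia (log2 fold change 1.98, standard error 0.41, adjusted p = 0.146 with edgeR and 0.000126 with DESeq2). With a newer form of edgeR's statistic, chosen after the data were seen, Ear2 and Rnase2a were the 2 genes called among all 15566 (0.0128%), with adjusted p of 0.00273 and 0.0175. Ear2 and Rnase2a, and Retnla, Pdcd1lg2, Chil3, Pparg, Il1rn, Tgm2, Igf1 and Ndrg1 of the same list, are named after their values were seen.

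Ccl6, a chemokine also counted among damage-associated microglia genes, had normalized counts of 18799, 32739 and 25872 (rIL-13) and 52076, 65113 and 74690 (rIL-4), against 5059 to 9262 with PBS (log2 fold change 1.32, standard error 0.27, adjusted p = 0.145 with edgeR and 0.000137 with DESeq2). Retnla, which encodes the secreted protein FIZZ1, had 7622, 1687 and 2129.8 (rIL-13) and 12339, 14896 and 14794 (rIL-4), where mouse 5 was the highest of the rIL-13 libraries, and PBS microglia had at most 7.31 (log2 fold change 1.87, standard error 0.55, edgeR adjusted p = 0.31). Pdcd1lg2, the inhibitory ligand PD-L2, was at 0 in the PBS libraries and had 301, 85.1 and 155 (rIL-13) and 1209, 1369.7 and 622 (rIL-4) (log2 fold change 2.55, standard error 0.59, adjusted p = 0.241 with edgeR and 0.00236 with DESeq2). Chil3, a chitinase-like protein also called Ym1, had 197720, 208230 and 291950 (rIL-13) and 503100, 876160 and 894740 (rIL-4) (log2 fold change 1.70, standard error 0.53, edgeR adjusted p = 0.33). In each of these 4 members the 3 rIL-4 libraries were above the 3 rIL-13 libraries. Pparg, a lipid-sensing nuclear receptor, had 20, 99.9 and 24.3 (rIL-13) and 331, 284 and 325 (rIL-4), a group of rIL-13 libraries near the PBS range of 18.8 to 86.7 (log2 fold change 2.72, standard error 0.89, adjusted p = 0.343 with edgeR and 0.0398 with DESeq2). Il1rn, the interleukin-1 receptor antagonist, had 877, 1239 and 835 (rIL-13) and 1512, 2501 and 1749 (rIL-4) (log2 fold change 0.97, standard error 0.26, adjusted p = 0.288 with edgeR and 0.0475 with DESeq2).

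Mrc1, the mannose receptor CD206, had normalized counts of 4598, 10504 and 5948 (rIL-13) and 6382, 19535 and 18267 (rIL-4) and overlapped, since mouse 8 was below rIL-13 mouse 6 (log2 fold change 1.08, standard error 0.51, edgeR adjusted p = 0.463). Tgm2, a transglutaminase, overlapped as well, with 45586, 106120 and 74884 (rIL-13) and 72513, 188380 and 98558 (rIL-4). The exceptions to the direction of the list included Igf1, insulin-like growth factor 1, with 9419, 10093 and 5289.7 (rIL-13) and 7168, 3467 and 4605 (rIL-4) (log2 fold change -0.70, standard error 0.30, edgeR adjusted p = 0.428), and Ndrg1, with 5641, 7106 and 10037 (rIL-13) and 4541, 4853 and 3502 (rIL-4) (log2 fold change -0.82, standard error 0.25, adjusted p = 0.318 with edgeR and 0.0449 with DESeq2). Ndrg1 was the list's only member that DESeq2 called lower with rIL-4.

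**Figure D4:**
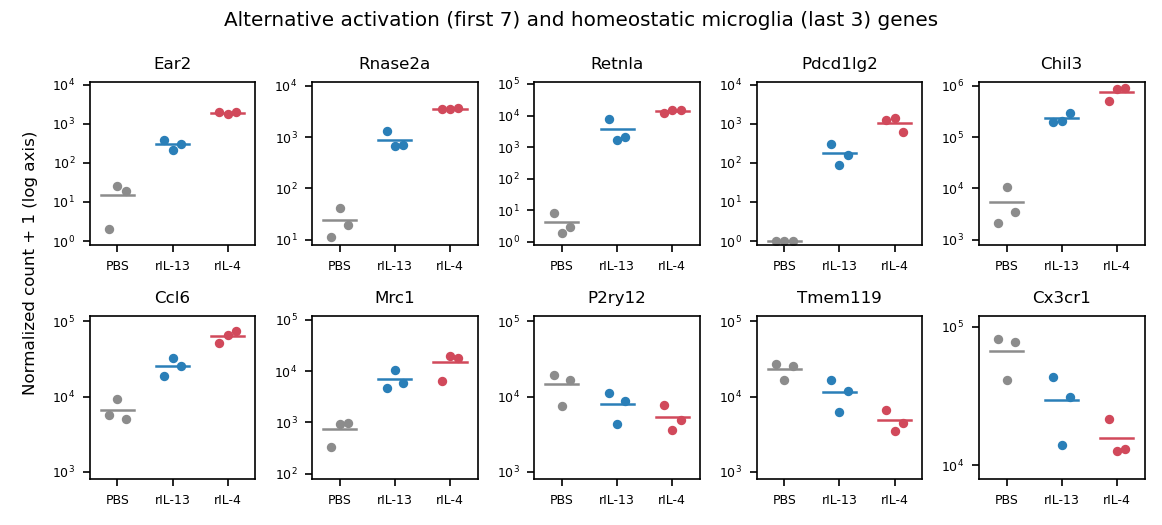
Normalized counts plus 1 (log axis) of 7 alternative activation genes and 3 homeostatic microglia genes in the 9 microglia libraries, with 1 point per mouse and a line at the group mean. Ear2 and Rnase2a were higher in each rIL-4 library than in each rIL-13 library, whereas Mrc1 and the 3 homeostatic genes overlapped between the cytokines.

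Homeostatic microglia genes were lower with rIL-4 in most cases. Of 37 members among 38 genes, 32 had a log2 fold change below 0, with a median of -0.50, and edgeR gave an unadjusted p under 0.05 for 6, all lower, against 5.04% of the members. DESeq2 called Serpine2, Tmem119 and Slc2a5. Serpine2, a protease inhibitor, had normalized counts of 7965, 12175 and 4135 (rIL-13) and 3879, 1912 and 2154 (rIL-4) (log2 fold change -1.60, standard error 0.39, adjusted p = 0.224 with edgeR and 0.00123 with DESeq2). Tmem119, a transmembrane protein used to mark microglia, had 16727, 6240.3 and 11704 (rIL-13) and 6611, 3482 and 4476 (rIL-4), so that rIL-13 mouse 6 lay below rIL-4 mouse 8 (log2 fold change -1.26, standard error 0.38, adjusted p = 0.319 with edgeR and 0.0147 with DESeq2). Slc2a5, a fructose transporter, had 856, 111 and 332 (rIL-13) and 61.3, 97.7 and 151 (rIL-4) and also overlapped through mouse 6 (log2 fold change -2.08, standard error 0.70, adjusted p = 0.349 with edgeR and 0.0449 with DESeq2), and its log2 fold change was -1.11 without rIL-13 mouse 5. Cx3cr1, the fractalkine receptor, had 43034, 13942 and 31076 (rIL-13) and 21698, 12758 and 13193 (rIL-4), and P2ry12, a purinergic receptor, 11267, 4272 and 8604 (rIL-13) and 7773, 3612 and 4809 (rIL-4). In both members, named after their values were seen, the rIL-13 library of mouse 6 was again at the rIL-4 level, and edgeR's adjusted p was 0.462 and 0.745. Without rIL-13 mouse 6, the median of the list was -0.68 and edgeR gave an unadjusted p under 0.05 for 17 of the 37, all lower. Without rIL-13 mouse 5 the median was -0.20, with 1 member higher and 4 lower at that p. Leaving out rIL-4 mouse 8 gave 11 lower, and leaving out mouse 10 gave 3. The sum of the microglia markers moved in the same libraries, and its part in this result was not tested.

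Of 30 damage-associated microglia members, 17 were higher and 13 lower, with a median of 0.043. edgeR gave 5 an unadjusted p under 0.05 with a higher level and 3 with a lower one, against 4.38% and 5.04% of all members, and DESeq2 called 4 higher and 0 lower, against 0.824% and 1.43%. In 5 each rIL-4 library was above each rIL-13 library and in 1 each was below, against 7% and 6.05%. Without rIL-13 mouse 6 the members were 9 higher and 21 lower with a median of -0.11, and without rIL-13 mouse 5 the median was 0.24. Apoe, a lipid carrier, had normalized counts of 234310, 94520 and 116280 (rIL-13) and 116570, 66413 and 112300 (rIL-4), and Trem2, a lipid receptor, 22032, 8173 and 12614 (rIL-13) and 13816, 10451 and 12832 (rIL-4). Both overlapped between the groups, with a 95% interval of the log2 fold change from -1.38 to 0.18 for Apoe and from -0.95 to 0.52 for Trem2 (edgeR). Axl, a receptor of apoptotic cells, had 4156, 5818 and 2908 (rIL-13) and 3729, 1742 and 2452 (rIL-4) (log2 fold change -0.69, standard error 0.29, edgeR adjusted p = 0.426), and Csf1, a growth factor of microglia, 1071, 1131 and 1326 (rIL-13) and 726, 891 and 393 (rIL-4) (log2 fold change -0.81, standard error 0.30, edgeR adjusted p = 0.388). Csf1 was lower in every rIL-4 library, whereas Axl overlapped. The tetraspanin Cd9 overlapped too, with 18657, 12520 and 12605 (rIL-13) and 14970, 8637 and 11816 (rIL-4) (log2 fold change -0.31, standard error 0.24, edgeR adjusted p = 0.748). With 1 library left out, the log2 fold change of Cd9 ranged from -0.52 without rIL-4 mouse 8 to -0.080 without rIL-13 mouse 5, and that of Axl from -1.03 without rIL-4 mouse 8 to -0.44 without rIL-13 mouse 6. For Apoe it was -0.093 without rIL-13 mouse 5. Lgals3, galectin-3, was higher in every rIL-4 library, with 41434, 31967 and 34828 (rIL-13) and 59372, 70653 and 79501 (rIL-4) (log2 fold change 0.95, standard error 0.23, adjusted p = 0.224 with edgeR and 0.00234 with DESeq2). Spp1, osteopontin, had 139800, 125820 and 157930 (rIL-13) and 185650, 191520 and 278350 (rIL-4), below the PBS values of 309370, 647850 and 500840 in all 6 libraries (log2 fold change 0.63, standard error 0.27, edgeR adjusted p = 0.426).

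The Fc receptor genes behind the CD16/32 stain did not separate the cytokines beyond the spread between mice. Fcgr3 had normalized counts of 50502, 31687 and 33833 (rIL-13) and 39890, 42981 and 37911 (rIL-4) and Fcgr2b 42054, 36048 and 42203 (rIL-13) and 47237, 46715 and 39900 (rIL-4), with log2 fold changes of 0.054 (95% interval -0.41 to 0.52) and 0.15 (-0.16 to 0.46). That of Fcgr2b was 0.066 without rIL-13 mouse 6. Nos2, the inducible nitric oxide synthase, overlapped as well, with 466, 428 and 737 (rIL-13) and 694, 1135 and 1014 (rIL-4) (log2 fold change 0.80, standard error 0.64, edgeR adjusted p = 0.765).

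Among 33 members of the inflammatory mediators, 16 were higher and 17 lower, with a median of -0.047. Besides Il1b, the chemokine Ccl4 was higher in every rIL-4 library, with normalized counts of 688, 392 and 543 (rIL-13) and 915, 1192 and 1189 (rIL-4) against 2486 to 3779 with PBS (log2 fold change 1.02, standard error 0.27, adjusted p = 0.271 with edgeR and 0.0209 with DESeq2). Cxcl16, another chemokine, was lower, with 5181, 3339 and 4752 (rIL-13) and 2853, 2864 and 2822 (rIL-4) (log2 fold change -0.64, standard error 0.18, adjusted p = 0.308 with edgeR and 0.0278 with DESeq2). The 31 interferon response members had a median of 0.26, and 8 of them were higher in every rIL-4 library, against 7% of all members. Oas1a, an antiviral synthetase, had 2051, 2277 and 2388 (rIL-13) and 3387, 4229 and 3978 (rIL-4), Irf7, a transcription factor of the interferon response, 1532, 1439 and 1701 (rIL-13) and 3863, 2967 and 2746 (rIL-4), and Ifi204, a DNA sensor, 3599, 5146 and 3489 (rIL-13) and 6012, 8269.7 and 7048 (rIL-4). In these 3 the rIL-4 libraries lay above the rIL-13 libraries, with edgeR adjusted p of 0.331, 0.348 and 0.369, and DESeq2 called 0 of the 31. edgeR gave 4 of them an unadjusted p under 0.05, all higher, and 2 higher and 1 lower without rIL-13 mouse 5. The median ranged from 0.12 without rIL-4 mouse 9, with 2 higher and 2 lower at that p, to 0.53 without rIL-13 mouse 7, with 9 higher.

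The 10 MHC class II members, which present peptides to CD4+ T cells, had a median of 0.11. The alpha chain gene H2-Aa had normalized counts of 868, 262 and 259 (rIL-13) and 2502, 2211 and 1538 (rIL-4) (log2 fold change 2.16, standard error 0.64, adjusted p = 0.31 with edgeR and 0.0147 with DESeq2) and the beta chain gene H2-Ab1 1123, 194 and 692 (rIL-13) and 2374, 2105 and 1869.5 (rIL-4) (log2 fold change 1.65, standard error 0.54, adjusted p = 0.343 with edgeR and 0.0485 with DESeq2). Cd74, the invariant chain, had 5241, 1910.5 and 2821 (rIL-13) and 7692, 6470.4 and 6049 (rIL-4) (log2 fold change 1.01, standard error 0.37, edgeR adjusted p = 0.384). In all 3 genes each rIL-4 library was above each rIL-13 library, and rIL-13 mouse 5 was the highest of its group. Without that mouse the log2 fold change was 3.01 for H2-Aa and 2.25 for H2-Ab1 and the list's median was 0.33, against -0.075 without rIL-13 mouse 6, with 4 members higher and 6 lower.

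Extracellular matrix genes were mostly lower with rIL-4. Of 53 members, 37 had a log2 fold change below 0, with a median of -0.31. edgeR gave 16 an unadjusted p under 0.05 with a lower level and 3 with a higher one, against 5.04% and 4.38% of all members (7.21% and 4.18% of all genes tested). DESeq2 called 2 lower and 1 higher, against 1.43% and 0.824% of all members and 2.85% and 1.08% of all genes. The member of the list with the lowest p, Lgals3, went the other way and was higher with rIL-4 (log2 fold change 0.95, edgeR adjusted p = 0.224, DESeq2 adjusted p = 0.00234). Col6a1, a collagen VI chain, had normalized counts of 12681, 43906 and 10321 (rIL-13) and 6775, 3042 and 1562 (rIL-4) (log2 fold change -2.54, standard error 0.63, adjusted p = 0.234 with edgeR and 0.0261 with DESeq2). Timp3, an inhibitor of metalloproteinases, had 7785, 38461 and 9862 (rIL-13) and 5991, 5105 and 2874 (rIL-4) (log2 fold change -1.98, standard error 0.56, edgeR adjusted p = 0.31). Bgn, the proteoglycan biglycan, had 7163, 39283 and 5646 (rIL-13) and 4921, 3687 and 1132 (rIL-4), and Col3a1, a fibrillar collagen, 26237, 126200 and 21549 (rIL-13) and 26888, 12760 and 4144 (rIL-4). Bgn and Col3a1 are named after their values were seen, and in all 4 the highest library was rIL-13 mouse 6. Without that mouse, the log2 fold change was -1.62 for Col6a1 and -0.94 for Timp3 (-3.26 for Col6a1 without rIL-4 mouse 8), the median of the list was -0.18 and the count with an unadjusted p under 0.05 was 8 lower and 1 higher. Leaving out rIL-4 mouse 9 or mouse 10 gave 7 lower in each case. Leaving out rIL-13 mouse 5 gave 17 lower and 2 higher, rIL-13 mouse 7 gave 14 and 2, and rIL-4 mouse 8 gave 12 and 5. All 11 member markers of fibroblasts and pericytes had a log2 fold change below 0, with a median of -2.07, and edgeR gave 9 of them an unadjusted p under 0.05. Without mouse 6 their median was -0.99 and 1 had an unadjusted p under 0.05, and without rIL-4 mouse 9 or 10 there were 5. There were 9 without rIL-13 mouse 5, and 10 without rIL-13 mouse 7 or without rIL-4 mouse 8. Since the sum of these markers was lower in every rIL-4 library, fewer such cells in the gate and a lower level of these genes cannot be told apart.

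Among the complement genes, 14 of 19 members were lower, with a median of -0.38 (-0.14 without rIL-13 mouse 5). Serping1, the C1 inhibitor, had normalized counts of 6324, 30798 and 3656 (rIL-13) and 2129, 2348 and 390.2 (rIL-4) (log2 fold change -3.04, standard error 0.85, adjusted p = 0.304 with edgeR and 0.0209 with DESeq2). Its highest value was in rIL-13 mouse 6, without which the log2 fold change was -1.64. Cfp, properdin, went the other way and was higher in each rIL-4 library, with 3522, 3247 and 4339 (rIL-13) and 5777, 8610 and 8476 (rIL-4) (log2 fold change 1.04, standard error 0.30, adjusted p = 0.31 with edgeR and 0.0278 with DESeq2). Of 23 growth and trophic factor members, 12 were lower, and the median ran from -0.32 without rIL-4 mouse 9 to 0.023 without rIL-13 mouse 7. Igf2, insulin-like growth factor 2, had 908, 5839.7 and 452 (rIL-13) and 224, 226 and 27.1 (rIL-4) (log2 fold change -3.88, standard error 1.02, adjusted p = 0.267 with edgeR and 0.0103 with DESeq2), and -2.11 without mouse 6. The fibroblast and pericyte marker sum was also highest in that mouse and lower in each rIL-4 library. The part of such cells in the values of Serping1 and Igf2 was not tested. Ptn, pleiotrophin, had 3588, 3343 and 2304 (rIL-13) and 1966, 1463 and 1616 (rIL-4) (log2 fold change -0.87, standard error 0.25, edgeR adjusted p = 0.31). Osm, the cytokine oncostatin M, was higher in each rIL-4 library, with 550.1, 753 and 632 (rIL-13) and 948, 2152 and 1779.9 (rIL-4) (log2 fold change 1.34, standard error 0.35, adjusted p = 0.262 with edgeR and 0.0212 with DESeq2).

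Phagocytosis and lysosome genes showed no common direction, with medians of 0.027 over 31 members and 0.019 over 40. Without rIL-13 mouse 6, 8 of the phagocytosis members were higher and 23 lower (median -0.13) and the lysosome median was -0.10, whereas without rIL-13 mouse 5 the medians were 0.16 and 0.17. Mfge8, a bridge to apoptotic cells, was lower in each rIL-4 library, with normalized counts of 4969.6, 5837 and 4058 (rIL-13) and 3766, 2919 and 2562 (rIL-4) (log2 fold change -0.68, standard error 0.21, edgeR adjusted p = 0.332), and the integrin Itgb5 overlapped, with 3989.5, 1686 and 3859 (rIL-13) and 2235, 1904 and 1412 (rIL-4) (log2 fold change -0.79, standard error 0.32, edgeR adjusted p = 0.413). Among lysosomal proton pump subunits, Atp6v0d2 had 2145, 503 and 1571 (rIL-13) and 5855, 5258 and 6893 (rIL-4), against 16.8 to 73.6 with PBS (log2 fold change 2.08, standard error 0.57, adjusted p = 0.289 with edgeR and 0.00443 with DESeq2). Atp6v1a had 13447, 12909 and 12174 (rIL-13) and 15385, 18436 and 21709 (rIL-4) (log2 fold change 0.53, standard error 0.16, adjusted p = 0.314 with edgeR and 0.0372 with DESeq2). Both were higher in each rIL-4 library, whereas Gaa, the acid alpha-glucosidase, was lower, with 6485, 6055 and 5714 (rIL-13) and 3636, 4645 and 4166 (rIL-4) (log2 fold change -0.55, standard error 0.17, edgeR adjusted p = 0.325). edgeR gave 6 lysosome members an unadjusted p under 0.05 with a higher level and 1 with a lower one, against 4.38% and 5.04% of all members, and DESeq2 called 2, both higher, against 0.824%. Without rIL-13 mouse 6 the edgeR count was 3 higher and 4 lower, and without rIL-4 mouse 10 it was 3 higher and 1 lower. In sterol and fatty acid synthesis (29 members, median -0.02), the desaturase Fads1 was lower, with 3596, 4225 and 3234 (rIL-13) and 2044, 2499 and 1999 (rIL-4) (log2 fold change -0.75, standard error 0.15, adjusted p = 0.143 with edgeR and 0.00114 with DESeq2), as was Msmo1 of sterol synthesis, with 1504, 753 and 1267 (rIL-13) and 724, 524 and 728 (rIL-4) (log2 fold change -0.84, standard error 0.29, edgeR adjusted p = 0.352). Mvd of the same pathway overlapped, with 614, 436 and 526 (rIL-13) and 1239.5, 599 and 1037 (rIL-4).

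Genes of energy metabolism differed by small amounts. Of 77 nuclear-encoded oxidative phosphorylation members, 63 had a log2 fold change above 0, with a median of 0.11 and a 25th to 75th percentile of 0.029 to 0.20. The median was 0.010 without rIL-13 mouse 7, with 41 higher and 36 lower, and 0.20 without rIL-13 mouse 5. edgeR gave 3 of them an unadjusted p under 0.05, DESeq2 called 0, and in 13 each rIL-4 library was above each rIL-13 library, against 7% of all members. With 1 library left out, 1 to 4 of the 77 had an unadjusted p under 0.05, where 4.38% of all members did so with a higher level. Ndufv2, a subunit of complex I, had normalized counts of 3948, 5085 and 4768 (rIL-13) and 6411, 5502 and 6087 (rIL-4) (log2 fold change 0.39, standard error 0.14, edgeR adjusted p = 0.38), and Uqcrb of complex III 5413, 5806 and 4386 (rIL-13) and 6194, 6520.1 and 6771 (rIL-4) (log2 fold change 0.32, standard error 0.14, edgeR adjusted p = 0.43). Ndufb6, also of complex I, had 1608, 2344 and 1940.1 (rIL-13) and 2917, 2974 and 2520.1 (rIL-4) (log2 fold change 0.52, standard error 0.19, edgeR adjusted p = 0.386). Of 24 glycolysis members, 17 were higher, with a median of 0.27, and edgeR gave 7 an unadjusted p under 0.05 with a higher level and 1 with a lower one, against 4.38% and 5.04% of all members. Without rIL-13 mouse 6 these counts were 2 and 2 and the median was 0.23, without rIL-13 mouse 5 they were 2 and 1, and without rIL-13 mouse 7 they were 4 and 1. Leaving out rIL-4 mouse 9 gave 2 and 0, and leaving out mouse 10 gave 0 and 1. Without rIL-4 mouse 8 they were 8 and 1, with a median of 0.34. The enzyme Aldoa had 31975, 34227 and 31684 (rIL-13) and 39176, 44372 and 46214 (rIL-4) (log2 fold change 0.41, standard error 0.14, edgeR adjusted p = 0.348). Eno1, a later enzyme of the pathway, had 60475, 56575 and 52021 (rIL-13) and 61910, 83228 and 74774 (rIL-4) (log2 fold change 0.38, standard error 0.15, edgeR adjusted p = 0.407), and neither overlapped between the groups. The lactate carrier Slc16a1 was lower, with 4779, 4787 and 5474 (rIL-13) and 3532, 2519.6 and 3733 (rIL-4) (log2 fold change -0.62, standard error 0.20, edgeR adjusted p = 0.343). Of 38 members of the TCA cycle and fatty acid oxidation, 26 were higher, with a median of 0.12 (0.041 without rIL-13 mouse 6). Idh1 and Idh3b, isocitrate dehydrogenases, had log2 fold changes of 0.56 and 0.34, and Slc25a20, the carnitine carrier of mitochondria, -0.69, with edgeR adjusted p of 0.388, 0.399 and 0.407. Idh1 had 0.34 without rIL-4 mouse 10 and Slc25a20 -0.44 without rIL-13 mouse 6.

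Genes that copy, transcribe and translate the mitochondrial genome gave a median of 0.015 over 28 members, 14 higher and 14 lower. Twnk, the mitochondrial DNA helicase, was the only one called by DESeq2 and was lower with rIL-4, with normalized counts of 428, 586 and 321 (rIL-13) and 136, 28.6 and 145 (rIL-4) (log2 fold change -2.11, standard error 0.59, adjusted p = 0.306 with edgeR and 0.0189 with DESeq2). Polg2, an accessory subunit of the mitochondrial DNA polymerase, had 160.0, 584 and 151 (rIL-13) and 139, 91 and 192 (rIL-4), and its log2 fold change of -1.06 was -0.16 without rIL-13 mouse 6. Tufm, an elongation factor of mitochondrial translation, overlapped, with 3192, 3226 and 3689.6 (rIL-13) and 4238, 4711 and 3680 (rIL-4) (log2 fold change 0.32, standard error 0.15, edgeR adjusted p = 0.459). The 55 cytosolic ribosomal protein members had a median of -0.024, and edgeR gave 0 of them an unadjusted p under 0.05. Rpl5, with the lowest p of that list, had 11786, 13728 and 11178 (rIL-13) and 14122, 13871 and 13391 (rIL-4) (log2 fold change 0.18, standard error 0.12, edgeR adjusted p = 0.695). Rps2 and Rps27 followed, with log2 fold changes of 0.12 and -0.26, which were 0.068 for Rps2 without rIL-13 mouse 7 and -0.014 for Rps27 without rIL-13 mouse 5. DNA replication and mitosis genes had a median of -0.091 over 42 members, which was -0.17 when rIL-4 mouse 9 was left out and -0.015, with 20 higher and 22 lower, when mouse 10 was. The mitotic kinase Aurka was lower in each rIL-4 library, with 2267, 1675 and 1708 (rIL-13) and 1137, 1097 and 1195 (rIL-4) (log2 fold change -0.72, standard error 0.18, adjusted p = 0.235 with edgeR and 0.0147 with DESeq2), as was thymidine kinase Tk1, with 3173, 3455 and 3449 (rIL-13) and 1991, 2710 and 2671 (rIL-4) (log2 fold change -0.45, standard error 0.16, edgeR adjusted p = 0.382). Aurkb, another mitotic kinase, had 2835, 2836 and 3103 (rIL-13) and 2624, 2366 and 1939 (rIL-4) (log2 fold change -0.34, standard error 0.18, edgeR adjusted p = 0.53).

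Genes of the immediate early response and of stress during sorting had a median of 0.21 over 29 members, of which 23 were higher with rIL-4 (0.37 without rIL-4 mouse 8), and edgeR gave 6 an unadjusted p under 0.05 with a higher level, against 4.38% of all members. That count was 3 when rIL-4 mouse 9 was left out and 4 when rIL-13 mouse 6 or mouse 7 was. Without rIL-13 mouse 5 it was 8. Besides Hspa1a, Rgs1, a regulator of G protein signalling, had normalized counts of 3313, 989 and 1363 (rIL-13) and 4431, 4182 and 5733 (rIL-4) (log2 fold change 1.33, standard error 0.40, adjusted p = 0.315 with edgeR and 0.0189 with DESeq2; 2.03 without rIL-13 mouse 5), and Hspb1, a small heat shock protein, was lower, with 1624, 3087 and 1698 (rIL-13) and 1176, 993 and 898 (rIL-4) (log2 fold change -1.05, standard error 0.34, edgeR adjusted p = 0.343). Their part in the other differences was not tested. Of 34 antioxidant and iron genes, 24 were higher, with a median of 0.078. Ftl1, the ferritin light chain, had 238200, 164910 and 195310 (rIL-13) and 275790, 246260 and 330760 (rIL-4) (log2 fold change 0.51, standard error 0.18, edgeR adjusted p = 0.366), and Hmox1, heme oxygenase 1, 24061, 30575 and 29420 (rIL-13) and 29031, 42781 and 49152 (rIL-4) with overlap (log2 fold change 0.53, standard error 0.21, edgeR adjusted p = 0.404). Slc7a11, the cystine carrier, had 544, 2759 and 959 (rIL-13) and 608, 203 and 187 (rIL-4), its highest value in mouse 6 (log2 fold change -2.07, standard error 0.69, adjusted p = 0.349 with edgeR and 0.0408 with DESeq2), -1.19 without that mouse and -2.84 without rIL-4 mouse 8.

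**Figure D5:**
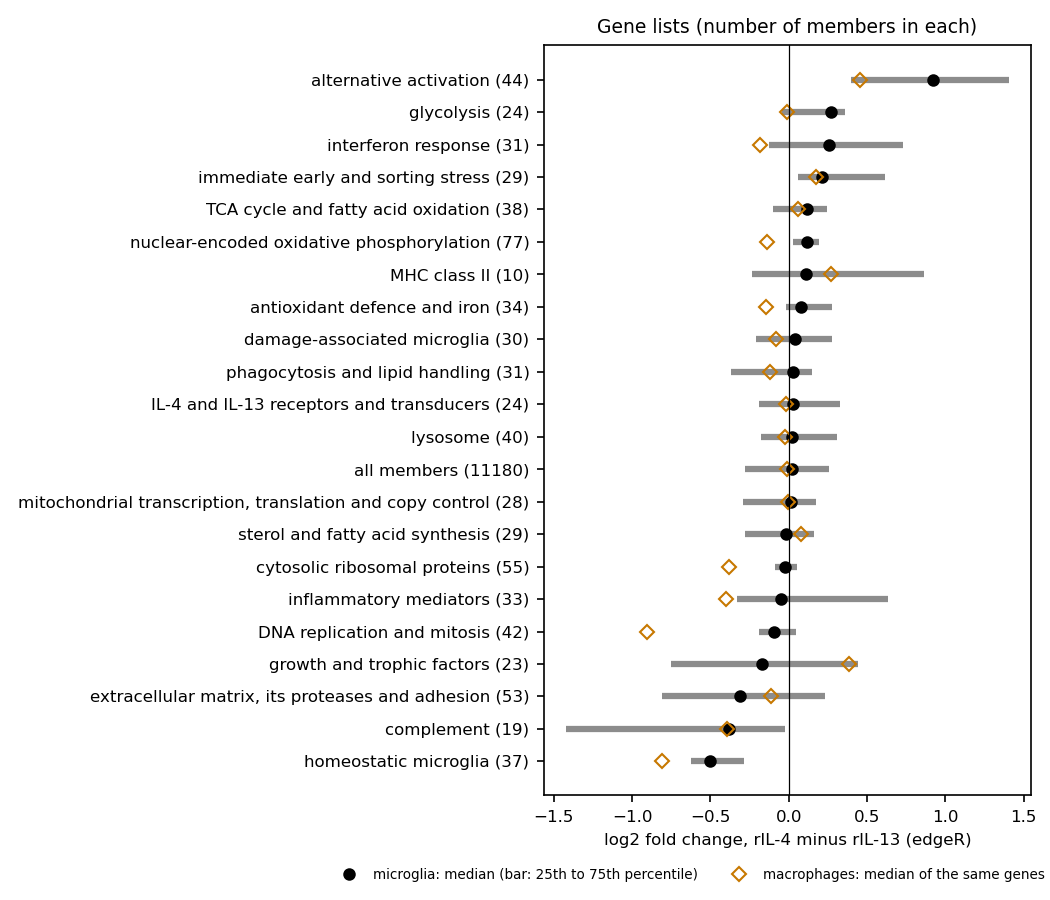
Median edgeR log2 fold change of rIL-4 over rIL-13 of the members of each gene list in microglia (black points, bars from the 25th to the 75th percentile over genes), and of the same genes in macrophages of the same mice (open diamonds). The cell type marker lists are not drawn. Among the lists drawn, alternative activation genes had the highest median in microglia (0.92) and homeostatic microglia genes the lowest (-0.50), and all members had 0.018.

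The macrophages of the same mice allowed the question whether the cytokine difference depended on the cell type. Of 10755 members tested in macrophages, edgeR called 33 between rIL-4 and rIL-13 (0.307%, against 0.25% of all genes tested), 3 higher and 30 lower with rIL-4. DESeq2 called 356 members there, against 3.09% of all genes it tested. The median log2 fold change of alternative activation genes was 0.46 in macrophages, against 0.92 in microglia, and DNA replication and mitosis genes -0.90 against -0.091. For Ccl24, the log2 fold change was 0.61 (standard error 0.53) in macrophages and 1.95 in microglia, and the interaction of cytokine and cell type was 1.32 (95% interval -0.15 to 2.79, adjusted p = 0.571, edgeR). Il1b had -0.35 (standard error 0.57) in macrophages, and its interaction was 3.14 (95% interval 1.40 to 4.88, adjusted p = 0.233). Mbp had the lowest interaction p among the leading 20 members, with -0.11 (standard error 0.15) in macrophages and an interaction of 1.45 (adjusted p = 0.0777). Prps1, with 1.34 (standard error 0.29), and Perp, with -2.27 (standard error 0.78), had the same direction in macrophages as in microglia, and their interactions were -0.15 and -0.42. Of the leading 20, the interaction was past the threshold for 0.

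Over all members, the interaction was called for 9 of 11180 by edgeR (0.0805%, against 0.139% of the 16535 genes tested), and DESeq2 called 115, against 1.83% of all genes it tested. In edgeR, 8.15% had an unadjusted p under 0.05, against 10% of all genes. These 9 members, named after their values were seen, were Pmp22, Ecscr, Hspb3, Cd5l, Tgfa, Cd72, Vangl1, Cyr61 and St3gal6. Each had a lower level with rIL-4 in macrophages and a log2 fold change between -0.58 and 0.83 in microglia. Pmp22, a myelin and membrane protein, had 1585 ± 196 normalized counts (SD, n = 3) in rIL-13 macrophages and 394 ± 27.5 in rIL-4 macrophages, and 10860.5 ± 1473 and 8141 ± 322 in microglia (interaction 1.57, standard error 0.23, adjusted p = 0.0261, edgeR). Cd5l, a scavenger protein of macrophages, had 229 ± 72.6 and 49.2 ± 11.5 in macrophages and 601 ± 176 and 820.3 ± 155 in microglia (interaction 2.64, standard error 0.47, adjusted p = 0.0446, edgeR). With the mouse as a block, which pairs its microglia with its macrophages, edgeR called 6 members, of which Pmp22 and Cd5l were shared with the 9. Most of the 9 had few counts in macrophages and many in microglia, as Vangl1 with 0.861 ± 0.845 in rIL-4 macrophages and 386 ± 46.8 in rIL-4 microglia, and the markers of microglia moved in the same direction in the macrophage libraries. Of the 12 microglia markers, 11 had a log2 fold change below 0 in macrophages, with a median of -1.79 over the 12, and edgeR gave those 11 an unadjusted p under 0.05 and 4 an adjusted p under 0.05. Their sum was 3450.5, 2377 and 2932 CPM in rIL-13 macrophages and 2372, 2053 and 2057 in rIL-4 macrophages, with each rIL-4 library below each rIL-13 library. In macrophages Pmp22 had a log2 fold change of -2.01, Cd72 -1.85 and Cd5l -2.21, near the median of the markers. St3gal6 had -2.99, Tgfa -3.10, Ecscr -3.72, Vangl1 -4.36, Cyr61 -5.39 and Hspb3 -6.26, all further below 0 than that median. The part of microglial RNA in the macrophage gate in these interactions was not tested. The interaction was called for 0 members without rIL-13 mouse 5 and for 0 without rIL-13 mouse 6.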

How the data were processed

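Gene counts of 18 libraries, 9 from sorted microglia and 9 from sorted macrophages, were analysed, each from 1 mouse and cell type. SMART-seq2 libraries carry no molecular identifiers and no strand, so PCR copies are counted as reads and genes that overlap on opposite strands share reads. Per the submitters' processing notes, reads were handled with STAR 2.5.3a and RSEM 1.3.0 on GRCm38. The authors deposited RSEM's expected counts as whole numbers, and these were used as deposited. No column was left without a sample (0 of them).

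The test was edgeR 4.0.16 (quasi-likelihood, TMM, filterByExpr, Benjamini-Hochberg adjustment over all genes tested, threshold 0.05) in R 4.3.3 on the 9 microglia libraries. DESeq2 1.42.0 was run here, where the authors used another release of DESeq2, and gave the Wald test of the alternative and the size factors behind the normalized counts. The interaction was fitted on 18 libraries. Group sums were compared by two-sided exact permutation tests, with a smallest p of 0.1. Gene positions came from GENCODE M21, in which 11173 members were found by identifier without its version.

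The members and gene lists were chosen with earlier results of these data known. Named members were the 10 with the lowest p in each direction among those with no overlap and a mean of at least 100, the 3 with the lowest p of each list, and the receptors and genes of the study's own assays, some of which are not reported here. Mobp, Ear2, Rnase2a, Retnla, Pdcd1lg2, Chil3, Pparg, Il1rn, Tgm2, Igf1, Ndrg1, Cx3cr1, P2ry12, Spp1, Bgn, Col3a1 and the members called in the interaction were named after their values were seen. The pairing of cell types came from the mice. Deviations from the group means correlated at 0.0607 to 0.185 between cell types of 1 mouse and at most at 0.0567 between mice of a group. Alternatives were DESeq2, other scalings and gene filters, the 6 or all 18 libraries, and leaving out each library. The scripts were tested on simulated data.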

Additional observations from a re-analysis of the deposited data

Results flagged for a closer look

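For 9 of 11180 members (0.0805%) the difference between rIL-4 and rIL-13 was not the same in microglia and macrophages by edgeR's interaction test. That share was below the 0.139% of all genes tested. Without rIL-13 mouse 5, and likewise without rIL-13 mouse 6, 0 members were called. The interaction on the log2 scale, microglia minus macrophages, was 1.57 for Pmp22 (adjusted p = 0.0261), 3.12 for Ecscr (0.027) and 2.64 for Cd5l (0.0446). It was 3.27 for Tgfa (0.0446), 1.76 for Cd72 (0.0451) and 2.88 for St3gal6 (0.0497). For Vangl1, Cyr61 and Hspb3 the adjusted p was 0.0482, 0.0496 and 0.0423, and the fitted values of 4.16, 5.30 and 7.24 are not folds. The rIL-4 macrophages of mice 8, 9 and 10 had 2, 0 and 1 counts of Vangl1, 0, 0 and 2 of Cyr61 and 0 of Hspb3, so that these sizes depend on the prior count of the fit. In macrophages each of the 9 was lower in the mean with rIL-4, as Ecscr with 6.99 ± 5.71 normalized counts (SD, n = 3) against 91.9 ± 2.48 with rIL-13, and Tgfa with 8.96 ± 4.77 against 77.5 ± 29.7. In microglia, Ecscr had 1881 ± 331 with rIL-4 and 2817 ± 589 with rIL-13, and Tgfa 2871 ± 735 and 2519.9 ± 818. St3gal6 had 4609 ± 321 and 4874 ± 2328 in microglia, and Cd72 5220.4 ± 835 and 5452 ± 1431. With the mouse as a block, Pmp22 and Cd5l kept an adjusted p under 0.05 (0.0444 for each) and the other 7 did not. Of the 12 microglia markers, 11 also had a log2 fold change below 0 in macrophages, with a median log2 fold change of -1.79 and sums of 2053 to 2372 CPM against 2377 to 3450.5 with rIL-13. The part of microglial RNA in the macrophage gate was not tested.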

How the results depend on the processing

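Where edgeR called 0 members, DESeq2 called 252, the fit on all 18 libraries 61 (0.546% of members, against 0.835% of all genes tested), and the newer edgeR statistic 2, and leaving out 1 library gave 0 to 2. In the fit on the members alone, DESeq2 called 205, the 18 libraries 55, and leaving out 1 library gave 0 to 2, with 2 without rIL-13 mouse 5. At an unadjusted p under 0.05 edgeR gave 1054 members, 862 to 1146 with 1 library left out and 717 to 1549 under the other settings. For the interaction, DESeq2 called 115 members and leaving out 1 mouse gave 0 to 5, with 4 for rIL-13 mouse 7 and for rIL-4 mouse 8, 5 for mouse 9 and 1 for mouse 10. In macrophages DESeq2 called 356. The replicate block, which pairs the cell types of a mouse, gave 6 members in the interaction, 2 of them shared with the 9 called without it. No paired analysis was possible for rIL-4 against rIL-13 because no mouse received both. Of 89 named members, 85 kept their direction under all settings run, and the log2 fold change of 25 moved by over 1.5 times with 1 library left out. With 1 library left out, Il4ra ranged from -0.40 to 0.65, Trem2 from -0.50 to 0.25, Fcgr3 from -0.085 to 0.31 and Stat6 from -0.0039 to 0.27. Besides the lists given above, medians near 0 turned sign with 1 library left out, from -0.058 to 0.094 for inflammatory mediators, -0.14 to 0.12 for cytosolic ribosomal proteins, -0.026 to 0.12 for the receptors, -0.090 to 0.087 for sterol synthesis and -0.049 to 0.043 for mitochondrial gene expression. The cause of these changes was not tested. With 3 mice in each group and a median standard error of 0.33, small differences were not detectable, and the PCR reads carry counting error beyond what their number gives.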
